A study of Mus musculus with 5 samples.

Results

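Transforming growth factor beta (TGF-beta) genes were followed in the embryonic mouse heart. The 10 genes were taken from a list of names, with no threshold on a measured value. They comprise the ligands Tgfb1, Tgfb2 and Tgfb3, the signalling receptors Tgfbr1 and Tgfbr2, the co-receptors Tgfbr3 and Eng, the latent TGF-beta binding proteins Ltbp1 and Ltbp3, and the matrix protein Tgfbi, whose gene is named for its induction by TGF-beta. All 10 were found, among 13486 genes with at least 1 listed tag in the 5 libraries, and no filter on low counts removed any of them.

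TGF-beta ligands are secreted in a latent form, bound to their own propeptide and, through it, to a latent TGF-beta binding protein that anchors the complex in the extracellular matrix. Once released, a ligand is bound by the type II receptor TGFBR2, which activates the type I receptor TGFBR1, and the signal reaches the nucleus through SMAD proteins. In the heart the pathway is best known for the endocardial cushions of the atrioventricular canal (AVC) and outflow tract (OFT), where it takes part in the epithelial-to-mesenchymal transition by which endocardial cells enter the cushion matrix.

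The 5 Tag-seq libraries were made from hearts dissected at embryonic day 10.5. AVC, OFT, atria and ventricles came from wild type C57BL/6 embryos. The remaining AVC library came from Twist1 Knockout embryos of the ICR strain, called Twist1 null AVC here. The TWIST1 protein, a transcription factor with a helix-loop-helix domain, is made in the cushion mesenchyme, and the libraries were made to find genes enriched in the cushion-forming regions and genes that depend on Twist1. Per the labels, tissue from at least 3 litters was pooled for each library, and no region or genotype has a second library. The tests below therefore compare libraries and not conditions, and knockout and strain cannot be told apart in the null library.

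In Tag-seq, cDNA of the transcripts is made on oligo(dT) beads and cut at sites of the enzyme NlaIII. The 17 bases that follow a site are read and counted. A gene can yield a single tag type or several, and its level is the sum of its tags, given as TPM, tags per 1000000 listed tags of the library. Levels of different genes are not compared, since the yield of a tag differs between sites. Each gene's most counted tag is given here, since it carries most of the measured level for all of them except Tgfb2. Capitals mark the NlaIII site.
Tgfb1: CATGattgtgcgctcctgcaa
Tgfb2: CATGtccggttttgtggtgct
Tgfb3: CATGgatgacttcatctcctg
Tgfbr1: CATGggccctctttagaaaag
Tgfbr2: CATGtattcaaataggaatgt
Tgfbr3: CATGgtctttgtgaacctgct
Eng: CATGagaggactaatcctagg
Ltbp1: CATGgctgtcattttaaacag
Ltbp3: CATGgtttgtacaataaatac
Tgfbi: CATGgtgcatttgtaataata

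The Tgfb1 tag lies in the coding sequence of exon 7 of 7, at chr7:25704912-25704932 on the plus strand of GRCm38, and the other 9 lie in a 3′ UTR. For Tgfb1, Tgfb3, Tgfbr1, Tgfbr3, Eng, Ltbp1, Ltbp3 and Tgfbi the tag comes from the site nearest the 3′ end of an annotated transcript. These tags held between 71.6% (Eng) and 100% (Tgfb1) of a gene's tags over the 5 libraries. The Tgfbr2 tag, at chr9:116087817-116087837 on the minus strand, is different, since it begins 3545 bases before the annotated transcript end and 25 sites from it. No Tgfbr2 tag came from a 3′-most site. Tgfb2, at chr1:186622792-186705989 on the minus strand, was spread over 13 tag types, and the tag shown held 40.2% of its tags.

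The libraries held 4223810 to 12977237 listed tags, and 70.7% to 74.5% of them matched 1 gene. They held 58407 tag types in AVC, 56744 in OFT, 35109 in atria, 32822 in ventricles and 79271 in the Twist1 null AVC. Genes found were 11915, 11702, 9777, 9721 and 12608 in the same order. The part of these differences in the comparisons with the chambers was not tested. Only tag types counted at least 6 times in a library are listed, which corresponds to 0.462 TPM in the Twist1 null AVC and 0.988 to 1.42 TPM in the other 4. Twist1 itself stood at 918 TPM in AVC, 298.8 in OFT, 63.4 in atria and 55.9 in ventricles, and at 4.55 TPM in the Twist1 null AVC. Haemoglobin tags took 22.0% of the atrial library and 0.367% to 4.75% of the others. Myl2, the ventricular myosin light chain, was at 6196 TPM in ventricles, 55.5 in atria and 1067 in AVC. Of the other cardiomyocyte markers, Actc1 was also higher in ventricles than in AVC, at 13860 against 6283 TPM. Myl7, Tnnt2, Tnni1, Myh6, Nppa, Ttn and Myh7 were lower in both chamber libraries than in AVC. Tnnt2, for one, was at 197.6 TPM in atria, 453.1 in ventricles and 3978 in AVC. The 9 cushion mesenchyme markers summed to 2522 TPM in AVC, 3309 in OFT, 234 in atria, 229 in ventricles and 470 in the Twist1 null AVC. Of these, Prrx1 and Bgn had no listed tag in either chamber library. The 9 endothelial and endocardial markers summed to 535, 599, 218, 280 and 634 TPM in the same order, with no listed Emcn tag in AVC. In tissue libraries, fewer cells of a type and less RNA per cell cannot be told apart, and the part of these marker differences in the results below was not tested.

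The level of each ligand by library is given first, with the exact 95% Clopper-Pearson interval of its count, which covers counting error only. Tgfb1, the first described ligand of the family, was at 30.5 TPM in AVC (26.2 to 35.2), 19.6 in OFT (16.0 to 23.7), 2.79 in atria (1.48 to 4.76), 2.60 in ventricles (1.30 to 4.66) and 12.8 in the Twist1 null AVC (10.9 to 14.9). The intervals of the 2 chamber libraries overlapped and the others stood apart, in the order AVC, OFT, Twist1 null AVC and chambers. Tgfb2, the ligand whose loss causes valve and septal defects in mice, was at 172.0 TPM in AVC (161.7 to 182.8), 131.7 in OFT (122.1 to 141.9), 23.8 in atria (19.6 to 28.7), 24.4 in ventricles (19.9 to 29.6) and 265.6 in the Twist1 null AVC (256.8 to 274.6). It was the only gene of the 10 whose highest level was in the Twist1 null AVC with an interval clear of every other library. Tgfb3 was at 11.03 TPM in AVC (8.55 to 14.0), 7.59 in OFT (5.43 to 10.3), 7.29 in atria (5.05 to 10.2), 7.81 in ventricles (5.38 to 10.97) and 3.85 in the Twist1 null AVC (2.86 to 5.08). The 4 wild type intervals overlapped each other, and the null interval reached only that of the atria.

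The receptors had unlike patterns. Tgfbr1 was at 52.0 TPM in AVC (46.4 to 58.1), 44.4 in OFT (38.9 to 50.5), 6.43 in atria (4.34 to 9.18), 8.52 in ventricles (5.97 to 11.8) and 22.1 in the Twist1 null AVC (19.6 to 24.8). AVC and OFT overlapped, the chambers overlapped, and the null lay between these pairs. Tgfbr2 was at 27.3 TPM in AVC (23.3 to 31.8), 12.7 in OFT (9.86 to 16.2), 22.7 in atria (18.6 to 27.5), 26.3 in ventricles (21.6 to 31.7) and 29.7 in the Twist1 null AVC (26.8 to 32.8). OFT was the low library, and the other 4 overlapped. Tgfbr3, or betaglycan, a co-receptor that presents TGF-beta 2 to the signalling receptors, was at 36.9 TPM in AVC (32.2 to 42.0), 25.8 in OFT (21.7 to 30.5), 20.1 in atria (16.3 to 24.7), 51.1 in ventricles (44.6 to 58.4) and 21.5 in the Twist1 null AVC (19.1 to 24.2). The ventricles were highest, followed by AVC, and the intervals of the remaining 3 overlapped. Eng, or endoglin, a co-receptor of endothelial cells, was at 43.5 TPM in AVC (38.4 to 49.0), 55.2 in OFT (49.1 to 62.0), 5.36 in atria (3.47 to 7.91), 2.13 in ventricles (0.974 to 4.05) and 30.4 in the Twist1 null AVC (27.4 to 33.5). The atria and ventricles overlapped, at the low end.

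Of the matrix genes, Ltbp1 was at 120.7 TPM in AVC (112.1 to 129.7), 141.6 in OFT (131.6 to 152.2), 7.72 in atria (5.40 to 10.7), 16.1 in ventricles (12.5 to 20.4) and 5.16 in the Twist1 null AVC (4.001 to 6.56). The null was thus the lowest of the 5, with an interval that overlapped the atria. Ltbp3 was at 32.1 TPM in AVC (27.8 to 36.9), 23.9 in OFT (19.9 to 28.5), 3.21 in atria (1.799 to 5.30), 3.08 in ventricles (1.64 to 5.26) and 6.17 in the Twist1 null AVC (4.89 to 7.67). The cushion-forming regions overlapped each other, and the null overlapped both chambers. Tgfbi, a secreted protein that binds collagens and integrins, was at 116.5 TPM in AVC (108.1 to 125.4), 223.4 in OFT (210.9 to 236.6), 1.29 in atria (0.472 to 2.80), 3.79 in ventricles (2.17 to 6.15) and 14.1 in the Twist1 null AVC (12.1 to 16.3). The null stood apart from both the wild type AVC and the chambers.

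**Figure D1:**
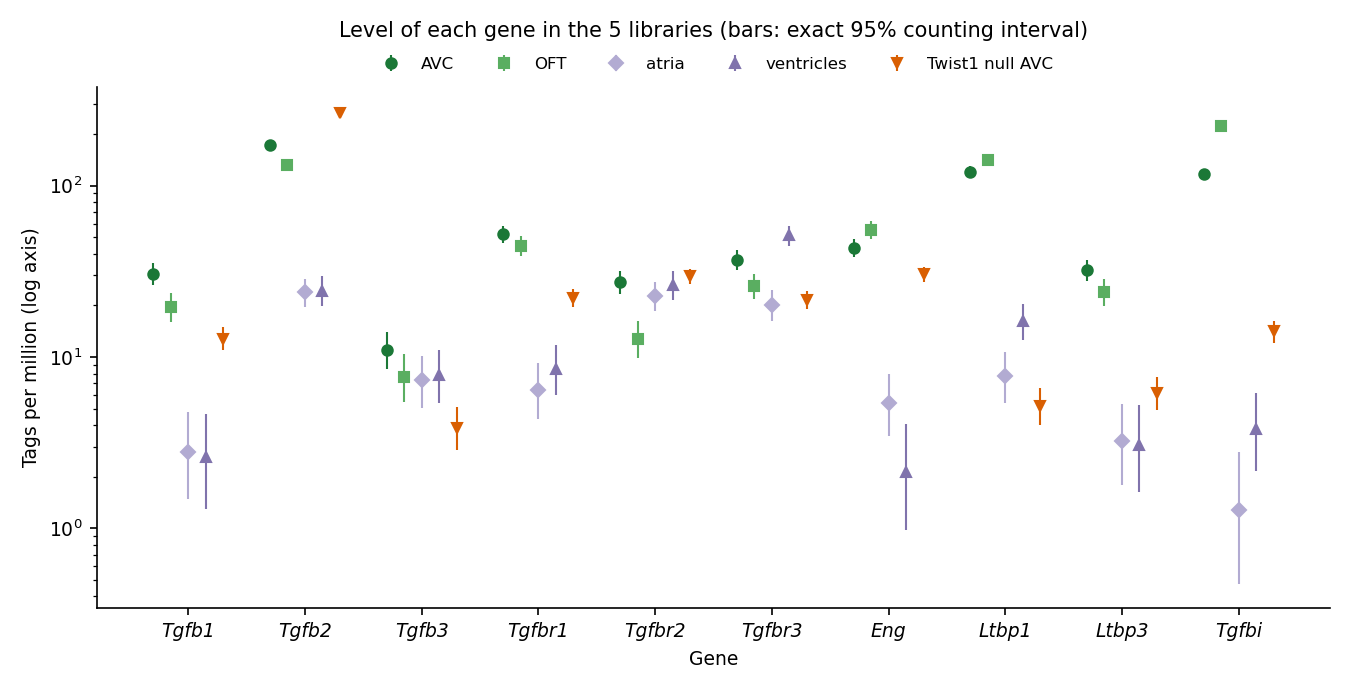
Level of each gene in TPM on a log axis, with 1 point for each of the 5 libraries and bars for the exact 95% counting interval. For 7 of the genes both chamber points lie below AVC and OFT, while Tgfb3, Tgfbr2 and Tgfbr3 keep within a narrower band. The orange Twist1 null point is lowest for Ltbp1 and Tgfb3 and highest for Tgfb2 and Tgfbr2.

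To ask which of the genes were enriched in the AVC, its library was compared with the atria and ventricles combined. Of the 10 genes, 7 passed as higher in the AVC: Tgfb1, Tgfb2, Tgfbr1, Eng, Ltbp1, Ltbp3 and Tgfbi. These include ligands, a signalling receptor, a co-receptor, both latent binding proteins and Tgfbi. A gene passed where the unadjusted two-sided p of the edgeR exact test, at a dispersion of 0.12, was under 0.05. Of all 12503 genes tested, 43.4% were higher in the AVC and 8.12% lower by the same rule, so a high share of passing genes is the background of this comparison. The median log2 ratio was 3.09 for the 10 genes and 1.23 for all genes tested. With TMM normalization, which brings the median of all genes to 0.28, these 7 genes passed again, with 25.6% of all genes higher and 17.5% lower.

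Tgfbi had the largest difference, from 2.48 TPM in the combined chambers to 116.5 TPM in the AVC, a log2 ratio of 5.55 (exact p = 9.03e-10). Since tag types under the listing limit are missing, a lower limit was set by giving every missing tag type 5 tags, and the difference was then at least 16.7-fold. The leading Tgfbi tag, with 96.6% of the gene's tags over the 5 libraries, carried it, at 113.1 against 2.48 TPM. The paper gives far lower Tgfbi levels in AVC and OFT, and none in the chambers. Apart from the leading tag, Tgfbi tag types were at 2.30 and 1.15 TPM in AVC. In OFT they were at 4.18, 2.66, 1.52 and 1.33 TPM, and none was listed in either chamber library. The paper's low levels are of the size of these tags, and whether it left out the leading tag was not tested. Eng was 11.4-fold higher in the AVC (exact p = 2.41e-05) and at least 3.72-fold with missing tag types at 5 tags. Eng had 1 of its 8 tag types in the chambers. Tgfb1 was 11.3-fold higher (exact p = 2.94e-05) and Tgfb2 7.15-fold (exact p = 0.000249). Ltbp1 was 10.3-fold higher (exact p = 2.58e-05), Ltbp3 10.2-fold (exact p = 6.09e-05) and Tgfbr1 7.01-fold (exact p = 0.000375). With missing tag types at 5 tags, Ltbp1 was at least 8.65-fold higher, Ltbp3 7.51-fold, Tgfb2 5.29-fold and Tgfbr1 4.36-fold. With TMM normalization the 7 log2 ratios were smaller, the lowest being 1.85 (Tgfbr1) and 1.88 (Tgfb2). Tgfb2 and Tgfbr1 did not pass at a dispersion of 0.4 (exact p = 0.051 and 0.0543). All 7 passed against the atria alone and against the ventricles alone. The cushion mesenchyme sum was higher in the AVC than in either chamber library as well, as given above.

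The other 3 genes did not pass. The log2 ratios of Tgfb3 (0.55), Tgfbr2 (0.16) and Tgfbr3 (0.08) differed from the median of all genes by -0.68, -1.07 and -1.15, and all 3 were negative with TMM normalization, at -0.40, -0.79 and -0.87. For Tgfbr3 the sign also depended on the chamber, with a log2 ratio of 0.87 against the atria alone and -0.47 against the ventricles alone.

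Of the 4 genes with several tag types of at least 20 tags, both tags of Eng and of Ltbp1 had higher levels in the AVC, and Tgfbr3 and Tgfb2 were split. The leading Tgfbr3 tag had 35.6 TPM in the AVC against 27.9 in the chambers, and a second tag, CATGgtttgaatgatgagcgt, 1.32 against 6.97. The Tgfb2 tag 2590 bases from the transcript end, CATGatgtttgtgacaggagg, had a level of 68.1 TPM in the AVC and had no listed count in either chamber, at least 60.6-fold with 5 tags for each chamber library. Its most counted tag, 45 bases from the end, had 48.2 TPM in the AVC against 6.86 in the chambers. The tag 1599 bases from the end, CATGtaatgtgtagatcttac, differed least of the abundant ones, with 17.5 against 7.76 TPM. Low tags 125 and 1922 bases from the end went the other way, each with 1.48 TPM in the AVC, against 2.93 and 2.14 in the chambers.

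The OFT, the other cushion-forming region, was compared with the same atria and ventricle libraries, so the 2 comparisons share their controls. Again 7 of the 10 genes passed as higher, where 40.6% of all genes tested were higher and 8.88% lower. The median log2 ratio was 2.71 for the 10 genes and 1.07 for all genes. Tgfbi was at 223.4 TPM in the OFT against 2.48 in the chambers, a log2 ratio of 6.49 (exact p = 4.06e-12) and at least 32.0-fold with missing tag types at 5 tags. Here too the leading Tgfbi tag carried the difference, at 213.8 against 2.48 TPM. Eng was 14.4-fold higher (exact p = 4.74e-06) and Ltbp1 12.1-fold (exact p = 7.82e-06), and at least 4.72-fold and 10.2-fold with missing tag types at 5 tags. Ltbp3 was 7.60-fold higher, Tgfb1 7.24-fold, Tgfbr1 5.98-fold and Tgfb2 5.47-fold, with exact p between 0.000395 and 0.00134. With TMM normalization the 7 log2 ratios ran from 1.60 (Tgfb2) to 5.63 (Tgfbi). At a dispersion of 0.4 Tgfb1, Tgfb2 and Tgfbr1 did not pass (exact p = 0.0549, 0.0876 and 0.0769).

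Tgfbr2 was lower in the OFT than in the chambers, with 12.7 against 24.4 TPM, a log2 ratio of -0.94 that did not pass (exact p = 0.215). With TMM normalization the log2 ratio was -1.79 and passed (exact p = 0.0200), where 26.2% of all genes were higher and 17.7% lower. This value rests on tags from a site far from the annotated transcript end, CATGtattcaaataggaatgt, with 11.2 TPM in the OFT against 24.4 in the chambers. Tgfb3 (0.01) and Tgfbr3 (-0.43) did not pass.

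The cushion-forming regions were then set against each other. None of the 10 genes passed between OFT and AVC with the edgeR exact test at an unadjusted p under 0.05, where 12.6% of all 12541 genes passed in either direction. At a dispersion of 0.05 in place of 0.12, 2 passed. These were Tgfbi, higher in the OFT with a log2 ratio of 0.94, and Tgfbr2, lower at -1.10. The remaining log2 ratios lay between -0.64 (Tgfb1) and 0.35 (Eng), and a p above the threshold does not show that the levels are alike. Between ventricles and atria none of the 10 passed either, where 20.1% of all genes did. The largest log2 ratios there were 1.54 for Tgfbi, on 6 and 16 tags, 1.34 for Tgfbr3 (exact p = 0.0744) and -1.32 for Eng, on 25 and 9 tags. Erythroid markers, which summed to 215400 TPM in atria and 46720 in ventricles, differ between these libraries too.

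**Figure D2:**
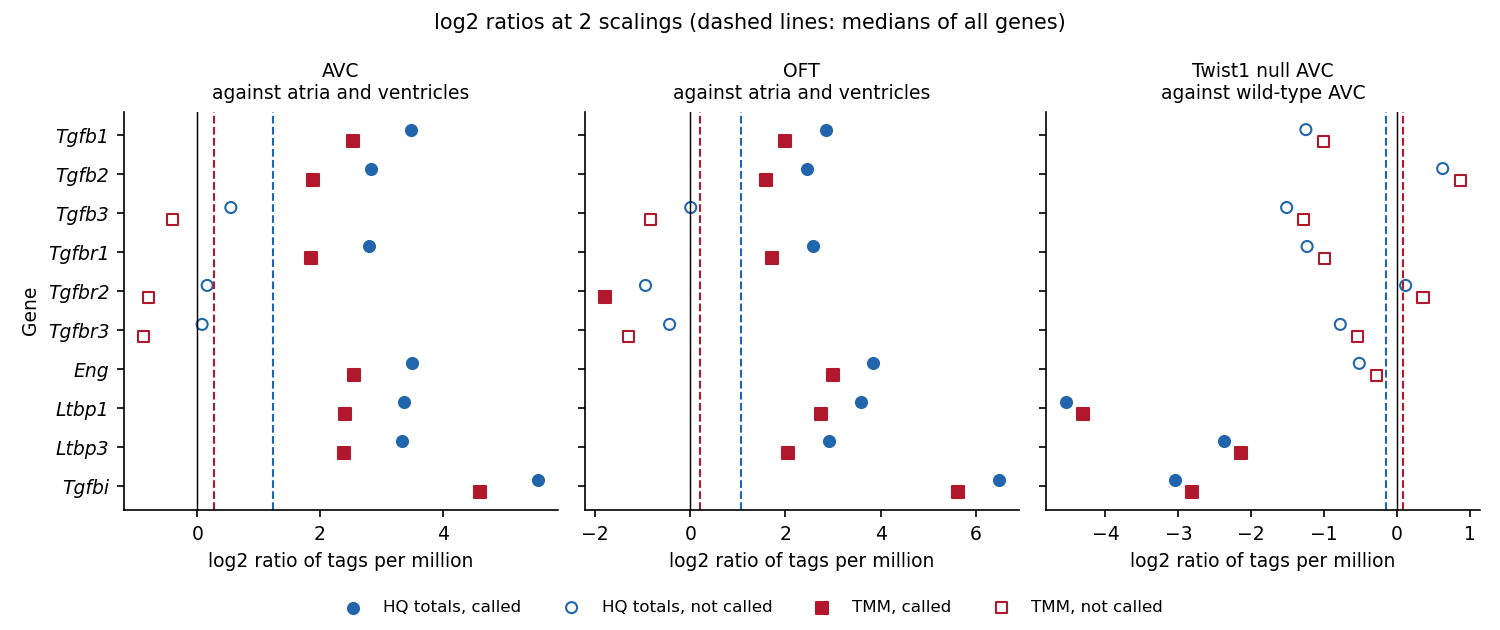
log2 ratio of TPM for each gene in the 3 comparisons, at the sum of the listed tags (circles) and with TMM normalization (squares). Filled symbols passed the exact test, and dashed lines give the median of all genes at each scaling. Against the chambers 7 genes lie to the right of both medians in AVC and OFT. In the Twist1 null AVC only Ltbp1, Ltbp3 and Tgfbi have filled symbols, all to the left.

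To ask which of the genes differed without Twist1, the Twist1 null AVC was compared with the wild type AVC. Both latent binding proteins and Tgfbi were lower in the null, and no gene of the 10 passed as higher. Of all 12963 genes tested, 11.9% were higher and 12.7% lower, against 0 and 3 of the 10. The median log2 ratio was -1.24 for the 10 genes and -0.16 for all genes. Ltbp1, Ltbp3 and Tgfbi also passed with TMM normalization, where 14.9% of all genes were higher and 9.36% lower. The cushion mesenchyme sum was 2522 TPM in the wild type and 470 in the null, while the endothelial and endocardial sum was 535 and 634 TPM. In the mesenchyme list Col3a1 went from 1439 to 206.6 TPM and Sox9 from 514 to 113.5. Pdgfra was at 35.2 and 35.8 TPM, and the rest were lower. The paper reports Sox9, Col3a1, Col1a1, Dcn, Bgn and Postn as lower in the null. In the endothelial and endocardial list Kdr, Flt1 and Cdh5 were lower in the null and the others higher.

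Ltbp1, which tethers the latent complex to fibrillin and fibronectin fibres, was at 120.7 TPM in the wild type AVC and 5.16 in the null, 23.4-fold lower (log2 ratio -4.54, exact p = 7.68e-08). Both of its abundant tag types had lower levels. The tag near the 3′ end shown above went from 110.8 to 4.39 TPM. A coding tag that spans exons 31 and 32 of 34, CATGaaggactcagatgacta, went from 9.88 to 0.771 TPM. Tgfbi was at 116.5 and 14.1 TPM, 8.26-fold lower (log2 ratio -3.05, exact p = 9.93e-05). Its leading tag went from 113.1 to 14.1 TPM and was its only tag type listed in the null. The other Tgfbi tag types in the wild type AVC were at only 2.30 and 1.15 TPM, so the measured fall rests on the leading tag. The paper gives far lower Tgfbi levels, and its own fall of Tgfbi in the null was not significant. Ltbp3, the other latent binding protein, was at 32.1 and 6.17 TPM, 5.21-fold lower (log2 ratio -2.38, exact p = 0.00226). With missing tag types of the null set to 5 tags, the folds were at least 21.8, 7.45 and 4.90. Ltbp3 did not pass at a dispersion of 0.4 (exact p = 0.101), which allows for a wider spread between libraries.

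Tgfb1 (-1.25, exact p = 0.0942), Tgfb3 (-1.51, exact p = 0.0582) and Tgfbr1 (-1.23, exact p = 0.0959) had negative log2 ratios that did not pass. Tgfbr3 was at -0.78 and Eng at -0.52, and Tgfbr2 at 0.12. None of these is shown to differ between the libraries, nor to be alike.

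The first base after the NlaIII site bears on this comparison. Over tag types with at least 50 tags in each library, the median log2 ratio of null to wild type was 0.57 for the 2693 tag types that begin with T after the site and -0.68 for the 9102 that begin with A, C or G. The leading tags of Ltbp1, Ltbp3 and Tgfbi begin with G, and their log2 ratios of -4.66, -2.26 and -3.00 differed from the median of such tags by -3.98, -1.58 and -2.33. When T tags were left out of all genes, 5 of the 10 genes were lower and none higher with the edgeR exact test, where 8.49% of all genes were higher and 19.2% lower. The added genes were Tgfbr1 (log2 ratio -1.74, exact p = 0.0208) and Tgfbr2, which kept only 8 tags in the wild type AVC and none in the null. Eng, Tgfb1, Tgfb3, Ltbp1, Ltbp3, Tgfbr3 and Tgfbi have no T tag in either AVC library, so their ratios are as before.

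The value of Tgfb2 also depends on which tags are counted. Over all tags it was at 172.0 TPM in the wild type and 265.6 in the null, a log2 ratio of 0.63 that did not pass (exact p = 0.386). Its 2 T tags went from 65.7 to 185.0 TPM in sum, and its other 11 tag types went from 106.3 to 80.6 TPM, so that the log2 ratio without T tags was -0.40 (exact p = 0.581). The tags, written with their distance to the annotated transcript end, show that the split is not by first base alone.
Tgfb2, 45 bases: CATGtccggttttgtggtgct
Tgfb2, 660 bases: CATGaaatgatggactatttg
Tgfb2, 1012 bases: CATGgggtgtattaaaagaca
Tgfb2, 1599 bases: CATGtaatgtgtagatcttac
Tgfb2, 1922 bases: CATGgacgccatatgcccaga
Tgfb2, 2590 bases: CATGatgtttgtgacaggagg

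All 6 lie in the 3′ UTR of exon 7 of 7. The T tags at 45 and 1599 bases went from 48.2 to 125.5 TPM and from 17.5 to 59.5 TPM. The tags at 660 and 1922 bases, which begin with A and G, also had higher levels in the null, from 8.72 to 18.7 TPM and from 1.48 to 13.6 TPM. The tags at 1012 and 2590 bases had lower levels, from 23.7 to 14.2 TPM and from 68.1 to 19.0 TPM. In all, 7 of the 9 Tgfb2 tag types with at least 20 tags over both libraries had higher levels in the null and 2 lower, with no test per tag type. In the null the tag nearest the 3′ end was thus the largest, while in the wild type AVC it was the tag at 2590 bases.

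**Figure D3:**
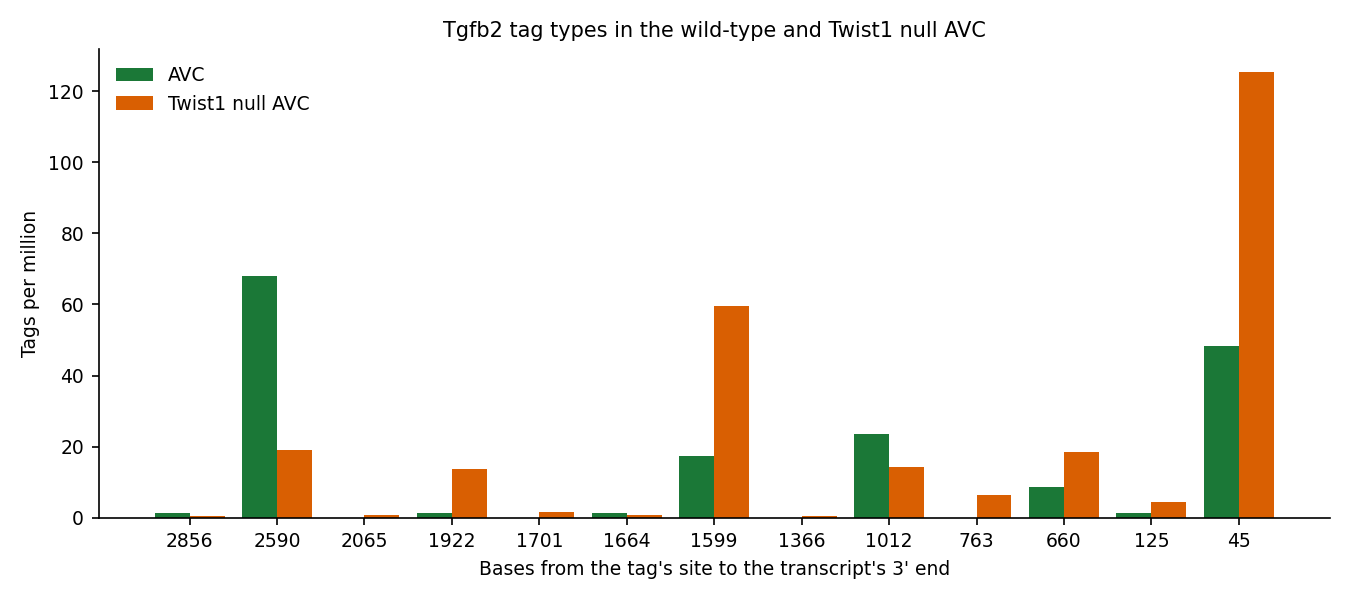
TPM of each of the 13 Tgfb2 tag types in the wild type AVC (green) and Twist1 null AVC (orange), ordered by the distance in bases from the tag's site to the annotated transcript end. The tag at 2590 bases goes from 68.1 to 19.0 TPM while those at 1599 and 45 bases are 3.41-fold and 2.60-fold higher in the null.

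TWIST1 and its partners bind the E-box, the letters CANNTG, and the promoters of the genes with lower levels in the null are shown for that reason. The windows are the 250 bases before each RefSeq transcription start on GRCm38.p6, all on the plus strand, with E-boxes in capitals. CANNTG reads the same on both strands.
Ltbp1 upstream start, chr17:75005279-75005528: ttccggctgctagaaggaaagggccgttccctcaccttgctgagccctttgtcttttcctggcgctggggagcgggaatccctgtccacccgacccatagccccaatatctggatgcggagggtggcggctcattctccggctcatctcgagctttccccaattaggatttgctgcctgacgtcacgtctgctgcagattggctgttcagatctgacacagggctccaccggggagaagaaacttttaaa
Ltbp1 downstream start, chr17:75178531-75178780: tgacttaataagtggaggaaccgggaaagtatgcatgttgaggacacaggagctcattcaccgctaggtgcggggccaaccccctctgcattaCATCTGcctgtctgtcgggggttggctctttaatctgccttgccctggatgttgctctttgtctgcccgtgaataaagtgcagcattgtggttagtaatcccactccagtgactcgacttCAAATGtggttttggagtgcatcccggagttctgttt
Ltbp3, chr19:5740650-5740899: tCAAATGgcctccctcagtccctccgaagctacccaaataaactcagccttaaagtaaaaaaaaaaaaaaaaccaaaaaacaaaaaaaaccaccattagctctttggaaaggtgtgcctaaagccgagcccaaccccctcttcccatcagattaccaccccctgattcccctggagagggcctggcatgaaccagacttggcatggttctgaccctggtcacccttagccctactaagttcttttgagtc

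The upstream Ltbp1 window held no E-box, the downstream window held 2 and the Ltbp3 window held 1. The Tgfbi window held none, and sites elsewhere were not searched. From chromatin immunoprecipitation of embryonic heart, the paper names Tgfbi as a putative target bound by TWIST1. It also lists Tgfbi among the genes it checked by immunoprecipitation, and reports enrichment by quantitative PCR at every bound region it tested. Of all 32851 windows of this length, 66.2% held at least 1, so these counts are ordinary for a promoter. A match is not evidence of binding, and a window without one does not show its absence.

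Other genes of the pathway were taken from a list of 64 in 5 roles, of which 62 were found. Against the chambers, 41 of 58 tested passed as higher in the AVC and 1 as lower. Of all genes, 43.4% were higher and 8.12% lower by the same test. The median log2 ratio was 2.35 for the listed genes and 1.23 for all genes. With TMM normalization 28 passed as higher and 4 as lower, against 25.6% and 17.5% of all genes. Genes of the latent complex and its activation had the highest share, 14 of 16. Mmp14, a membrane-bound metalloproteinase, and Htra1, a secreted serine protease, reached 89.4 and 70.3 TPM in the AVC and had no listed tag in either chamber library, at least 13.2-fold and 31.2-fold higher with missing tag types at 5 tags. Bgn, or biglycan, a matrix proteoglycan that binds TGF-beta, was at 49.4 TPM and Pmepa1, an inhibitor of SMAD signalling, at 15.3 TPM, also with no listed chamber tag and at least 7.32-fold and 2.72-fold higher. The gene that passed as lower was Smurf2, a ubiquitin ligase of SMADs and receptors, at 3.62 TPM against 16.7 in atria and 8.29 in ventricles (exact p = 0.0267).

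In the OFT 40 of 61 listed genes passed as higher than in the chambers and 1 as lower, where 40.6% of all genes were higher and 8.88% lower. With TMM normalization 30 were higher and 3 lower, against 26.2% and 17.7% of all genes. The same named genes led, with Mmp14 at 127.4, Bgn at 36.8, Pmepa1 at 33.0 and Htra1 at 31.9 TPM, at least 18.9-fold, 5.46-fold, 5.87-fold and 14.2-fold higher. Between OFT and AVC 5 of 61 passed as higher in the OFT and 2 as lower, a share near the 12.6% of all genes that passed. Acta2, the smooth muscle actin that TGF-beta induces in many cells, exceeded its AVC level in the OFT by 3.33-fold (exact p = 0.0192), as did Smurf2 by 3.09-fold (exact p = 0.0487). Itgb8, the integrin subunit that takes part in releasing latent TGF-beta, was 5.23-fold lower (exact p = 0.00285). Between ventricles and atria 1 listed gene was higher and 5 lower of 52, where 20.1% of all genes passed, among them Skil, a SMAD corepressor, at 4.03 against 13.5 TPM (exact p = 0.0407).

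In the Twist1 null AVC 20 of 59 listed genes passed as lower than in the wild type AVC and 3 as higher. Of all genes, 12.7% were lower and 11.9% higher by the same test. With TMM normalization 17 were lower and 6 higher, against 9.36% and 14.9% of all genes. The lower genes were of 3 roles: 9 of 17 in the latent complex and its activation, 4 of 9 among co-receptors, receptor partners and inhibitors, and 7 of 15 target genes. Of the 13 SMAD transducers and regulators and the 5 non-SMAD transducers none passed with the edgeR exact test at an unadjusted p under 0.05, and with TMM normalization 1 of each was higher. These roles hold few genes, and their counts are not shown to differ from the shares of all genes. Ltbp4, a further latent binding protein, was at 57.3 TPM in the wild type and 2.62 in the null, 21.9-fold lower (exact p = 1.88e-07). Fbn2, or fibrillin 2, a microfibril protein, was at 438.3 and 47.4 TPM, 9.25-fold lower (exact p = 4.13e-05). Fbn1, or fibrillin 1, in the same role, was at 85.9 and 68.4 TPM and did not pass (log2 ratio -0.33, exact p = 0.65). Dcn, or decorin, was at 60.4 and 4.70 TPM (exact p = 6.95e-06) and Bgn at 49.4 and 4.55 TPM (exact p = 2.46e-05). Both are proteoglycans that bind TGF-beta, and both stand in the cushion mesenchyme list as well. Of the lower target genes, Col1a1, Col3a1 and Postn stand in that list too.

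The higher named genes were Acta2, at 119.8 TPM in the wild type and 716.0 in the null (exact p = 0.000705), and Klf10, a TGF-beta inducible zinc finger factor, at 4.94 and 16.0 TPM (exact p = 0.0342). The target genes therefore had members on both sides, with 7 lower and 2 higher. Acta2 is also 1 of the 5 smooth muscle markers. Of the others, Tagln was at 171.8 TPM in the wild type AVC and 113.0 in the null, Cnn1 at 200.6 and 191.7, and Myocd at 9.05 and 10.9. Myh11, the smooth muscle myosin heavy chain, was at 0.988 TPM in the wild type and not listed in the null.

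**Figure D4:**
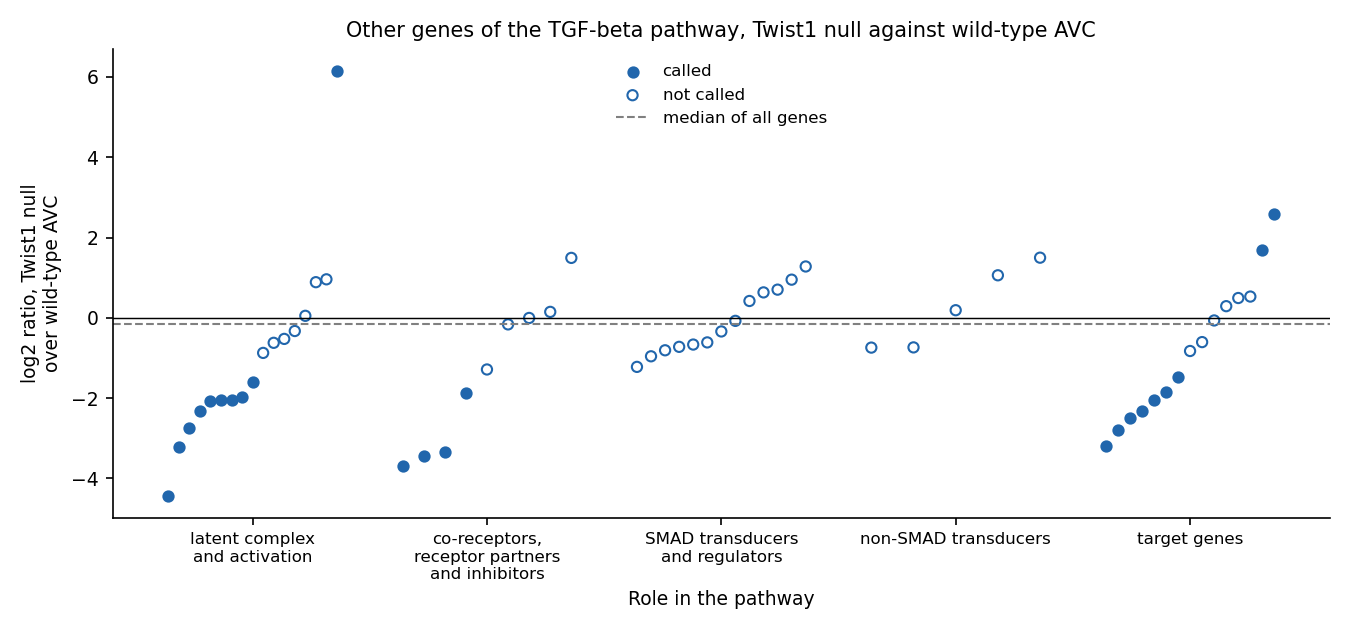
log2 ratio of the Twist1 null over the wild type AVC for the 59 other pathway genes tested, by role, with filled circles for genes that passed the exact test. Lower filled circles lie among the latent complex, co-receptor and target genes, and none among the SMAD and non-SMAD transducers. The highest point is Nrros, with no listed tag in the wild type AVC, whose ratio depends on the small count added by the fit.

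For 9 of the 10 genes, the 3 genes nearest in pattern over the 5 libraries were found by Euclidean distance between centred log2(TPM + 1) values, among genes with a mean of at least 5 TPM. With 5 libraries such likeness is only a description. Tgfb1 was nearest to Cpd, Socs4 and Phka1 (distances 0.13 to 0.21) and Tgfbr1 to Ube2l3, Scamp3 and Elp5 (0.12 to 0.17). Ltbp3 was nearest to Eif3m, Afdn and Toe1 (0.23 to 0.33), Tgfbr2 to Tstd3, Gatb and Zfp518a (0.20 to 0.28) and Tgfbr3 to Sae1, Got1 and Pard6b (0.23 to 0.27). Eng was nearest to Smad7, Srf and Fam117b (0.26 to 0.36). Smad7, the inhibitory SMAD, was at 53.0, 56.95, 6.00, 3.08 and 34.7 TPM in AVC, OFT, atria, ventricles and Twist1 null AVC.

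The nearest genes of the remaining 3 lay at larger distances. Tgfb2 was nearest to Ube2h, Chst15 and Ap1s1 (0.38 to 0.39). Ltbp1 was nearest to Taf15, Pgap2 and 5031439G07Rik (0.89 to 1.04) and Tgfbi to Klf4, Lars2 and Metap1d (0.93 to 1.07). Klf4, a Kruppel-like factor, was at 32.1 and 47.8 TPM in AVC and OFT, had no listed tag in the chambers and was at 4.55 TPM in the Twist1 null AVC.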

How the data were processed

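The authors deposited, for each Tag-seq library, a list of 17-base tags with their raw counts, restricted to tag types counted more than 5 times. The sources name read extraction with Bustard and a Chastity filter, with build mm9 in the submitters' processing notes. No coordinates are given in the lists. Tags were matched in sense to the bases after each NlaIII site of 33363 GENCODE M21 transcripts linked to RefSeq (GRCm38), kept where they matched 1 gene, and summed per gene. No genome sequence was used, so matches outside transcripts were not checked. Levels (TPM) are tags per 1000000 listed tags of a library.

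Genes were compared with the exact test of edgeR 4.0.16 (R 4.3.3) on the summed counts at a fixed dispersion of 0.12, the value of the study's methods, with the listed tags as library sizes, and called at an unadjusted p under 0.05. The spread between libraries of 1 group could not be measured. The test was run on simulated counts drawn at this same dispersion of 0.12, which cannot show whether 0.12 fits these libraries. Named pathway genes were, per comparison, up to 4 higher and 4 lower with the largest log2 ratio among those called with and without TMM normalization, with at least 50 tags. The genes, lists and tests were chosen with earlier results of these data known. Promoter sequences are from RefSeq (GRCm38.p6) and matched 8 of the 10 genes. The genes nearest in pattern to Tgfb3 are not reported here.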

Additional observations from a re-analysis of the deposited data

Results flagged for a closer look

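Tags in the antisense direction to 2 of the genes were more abundant in the Twist1 null AVC than in the wild type AVC, beyond the 95% counting intervals, and were not used in the levels above. Antisense tags of Tgfb2 were at 81.0 TPM in the null (76.2 to 86.0) and 49.9 in the wild type AVC (44.4 to 55.8), with 22.6 in OFT, 3.43 in atria and 8.52 in ventricles. By first base after the site, the T tags among them were at 48.6 TPM in the null and 7.08 in the wild type AVC, and the A, C and G tags at 32.4 and 42.8, so the direction is the opposite without T tags. Antisense tags of Tgfbr1 were at 13.0 TPM in the null (11.1 to 15.1), with no listed tag in the wild type AVC, atria or ventricles and 1.33 TPM in OFT. Of these 168 tags in the null, 132 were T tags. Their source was not tested. No group has a second library, and none was examined as standing apart from others of its group.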

How the results depend on the processing

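Results were recomputed under 15 other settings, and under 1 added after seeing the data, which set each missing tag type to 5 tags. Other dispersions, adjusted p and a filter on low gene counts leave a log2 ratio as it is. These settings could move only its side of the threshold and not its direction. Of the 730 log2 ratios recomputed for the 10 genes, 677 kept their direction and their side of the threshold, 33 changed sign, 14 newly passed in the same direction and 6 no longer passed. Of the 33, 2 also passed, both of Tgfbr2 without T tags. The 6 were all at a dispersion of 0.4, and each ratio that changed sign was of a gene that had not passed. At a dispersion of 0.4, 4 genes passed for OFT against the chambers (without Tgfb1, Tgfb2 and Tgfbr1) and 5 for AVC (without Tgfb2 and Tgfbr1), in place of 7. At a dispersion of 0.05, 2 passed between OFT and AVC, 6 in the Twist1 null AVC against the wild type and 1 between ventricles and atria. With A, C and G tags alone 5 passed in the null, and with more than 10 tags per tag type 2 passed between ventricles and atria.

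Changes of sign, as log2 ratios, were mostly with the scaling. For AVC against chambers, TMM gave Tgfb3 -0.40, Tgfbr2 -0.79 and Tgfbr3 -0.87, DESeq2 size factors gave -0.44, -0.83 and -0.91, and leaving out haemoglobin gave Tgfbr2 -0.046 and Tgfbr3 -0.13. Against ventricles alone Tgfbr3 was at -0.47. For OFT against chambers, Tgfb3 was at -0.84 with TMM, -0.86 with DESeq2 size factors, -0.20 without haemoglobin, -0.21 with more than 10 tags per tag type, -0.22 with 3′-most sites and also when thinned (-0.22), -0.027 without tags near abundant ones, -0.19 with missing tag types at 5 tags and -0.041 against ventricles alone. Tgfbr3 was at 0.36 against atria alone. For ventricles against atria, Tgfb2, Tgfb3 and Tgfbr2 were at -0.29, -0.22 and -0.11 with TMM, -0.28, -0.21 and -0.10 with DESeq2 size factors and -0.25, -0.19 and -0.077 without haemoglobin. Without T tags Tgfb2 was at -0.20 there and -0.40 in the null against wild type. Without T tags Tgfbr2 was at 6.44 for OFT against chambers, 0.20 for OFT against AVC and -6.66 in the null, where few or no tags remain and the ratio depends on the count added by the fit.

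With 3′-most sites Tgfbr2 has no tag and gave no value. No paired analysis was possible because each group has 1 library. Depth limits Tgfb1, Eng, Ltbp3 and Tgfbi in the chambers, where each library held 6 to 25 of their tags.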

Other observations

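Tag types of the receptors listed in the Twist1 null AVC and in none of the other 4 libraries add to the gene sums given above. For Tgfbr1 the tag CATGtacagtgctttatggat was at 6.55 TPM in the null and CATGatttcatcaatgtaagt at 2.47 TPM, while the leading tag, CATGggccctctttagaaaag, was at 50.9 TPM in the wild type AVC and 12.6 in the null. Counted at the 3′-most site only, Tgfbr1 had a log2 ratio of -2.02 (exact p = 0.00797), against -1.23 over all tags. For Tgfbr2 the tag CATGttactgtggcttgtttt was at 6.78 TPM in the null, and the leading tag was at 26.0 TPM in the wild type AVC and 22.9 in the null. For Eng the tag CATGacatgagaggactaatc was at 3.47 TPM in the null. It begins 5 bases before the leading Eng tag and holds that tag's NlaIII site. The leading Eng tag was at 34.9 TPM in the wild type AVC and 17.6 in the null, and the tag CATGcccagcctagcccaggg at 6.58 and 9.32 TPM.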
